A study of Sus scrofa with 9 samples.

Results

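The amino acid transporters described here are carrier proteins of the cell membrane, measured as mRNA in the mammary gland of sows before and after farrowing. They were chosen by name: a probe set belonged to the group if the platform annotation gave it exactly 1 symbol among SLC6A14, SLC7A4, SLC1A2, SLC38A1, SLC38A2, SLC3A2, SLC1A5, SLC7A1 and SLC7A5. Of these 9 genes, 7 had a probe set on the array, 10 probe sets in all of 23999 endogenous ones. No probe set was annotated to SLC38A2, a sodium-coupled carrier of small neutral amino acids, or to SLC7A5, which exchanges large neutral amino acids, and neither gene was analysed here. Of the 10 probe sets, 9 were bright enough to be tested, and these covered all 7 genes.

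Milk protein is built in the secretory epithelial cells of the gland from amino acids that transporters on the blood-facing membrane take up. Each carrier accepts a class of amino acids. Sodium-coupled carriers such as SLC6A14 and SLC38A1 concentrate neutral amino acids in the cell, and exchangers such as SLC1A5 swap them for others already inside. SLC7A1 carries lysine and arginine, SLC1A2 carries glutamate and aspartate, and SLC3A2 is the heavy chain that brings exchangers such as SLC7A5 to the membrane.

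Mammary tissue of Large White sows had been sampled on day -17, day 1 and day 17 relative to parturition, that is in late pregnancy, at the start of lactation and in established lactation. Each of 6 sows gave a biopsy on all 3 days, and the labels allow 2 days of tolerance around the early and the late sampling. All sows had the same breed and a corn and soybean diet, and no treatment was applied. Each array held RNA pooled from 2 sows, making 3 pools for each day and 9 arrays in total, so the spread between arrays is a spread between pools and leaves out part of the spread between single sows. The same 6 sows supplied all 3 days, and whether a pool number stands for the same sows on each day is not stated.

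Each value was a signal intensity on an Affymetrix porcine GeneChip, on a linear scale. The arrays had been scaled to a common trimmed mean, which lay between 500.09 and 500.11. With 3 arrays for a day, it is the number of arrays that limits how precise a value is. Spearman correlations between 2 pools of a day, taken over probe sets, lay between 0.954 and 0.976. A probe set was tested where its signal reached the 40th percentile of the array, called the filter level here, on at least 3 of the 9 arrays. The filter level lay between 82.1 and 94.2, and 15519 probe sets of 5670 genes passed. A gene was represented by its brightest tested probe set, and differences are log2 differences ± standard error from limma, with n = 3 pools per day and p-values adjusted over all tested probe sets at a threshold of 0.05. Levels of different genes were not compared, because probe sets differ in how strongly they bind their target. In tissue pieces, a change in the number of cells of a type and a change in RNA per cell cannot be told apart.

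On day 1, 4 of the 7 transporters were higher than on day -17 (SLC6A14, SLC7A4, SLC1A5 and SLC7A1) and none was lower. Over all 5670 genes, 15.3% were called higher and 10.4% lower in that comparison. On day 17 against day 1, SLC1A2 was higher and SLC38A1 lower, where 8.02% of all genes were called higher and 8.57% lower. On day 17 against day -17, SLC6A14, SLC7A4, SLC1A2 and SLC1A5 were higher and SLC38A1 lower, against a background of 23.8% higher and 23.8% lower. SLC6A14 and SLC7A4 passed the filter only through days 1 and 17, and SLC1A2 only through day 17. These genes were thus tested only because they were bright on days on which they were called higher. The median log2 difference of the 7 genes was 0.73, 0.0048 and 0.59 in the 3 comparisons, beside -0.00082, -0.035 and -0.032 over all genes. The members and gene lists were chosen with earlier results of these data known. Their counts and medians are therefore not an independent comparison with all genes. Among the 7, the pools of the 2 days did not overlap for 4 genes upward and none downward on day 1 against day -17 (22.8% and 18.5% of all genes), for 1 and 2 on day 17 against day 1 (18.2% and 19.4%), and for 4 and 1 on day 17 against day -17 (30.2% and 30.6%). In the F test for any difference among the 3 days, 5 of the 7 were called, with 47.8% of all genes called, and the exceptions were SLC7A1 (adjusted p = 0.0541) and SLC3A2 (adjusted p = 0.579).

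These directions are relative to the trimmed mean of each array. Scaling the arrays instead to 27 hybridisation control probe sets, for bacterial and phage transcripts added to the samples in fixed amounts, moved the median of all tested probe sets from -0.07 to -0.48, from -0.0092 to -0.87 and from -0.08 to -1.36 in the 3 comparisons. Under that scaling the counts of transporters higher and lower became 1 and 0 on day 1 against day -17, 0 and 4 on day 17 against day 1, and 1 and 4 on day 17 against day -17. SLC6A14 stayed higher and SLC38A1 stayed lower in the comparisons in which they had been called. Of the other calls, the rise of SLC1A5 on day 17 turned into a fall, and the rest were lost. Quantile normalization and median centring kept the counts of 4 and 0, 1 and 1, and 4 and 1.

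**Figure D1:**
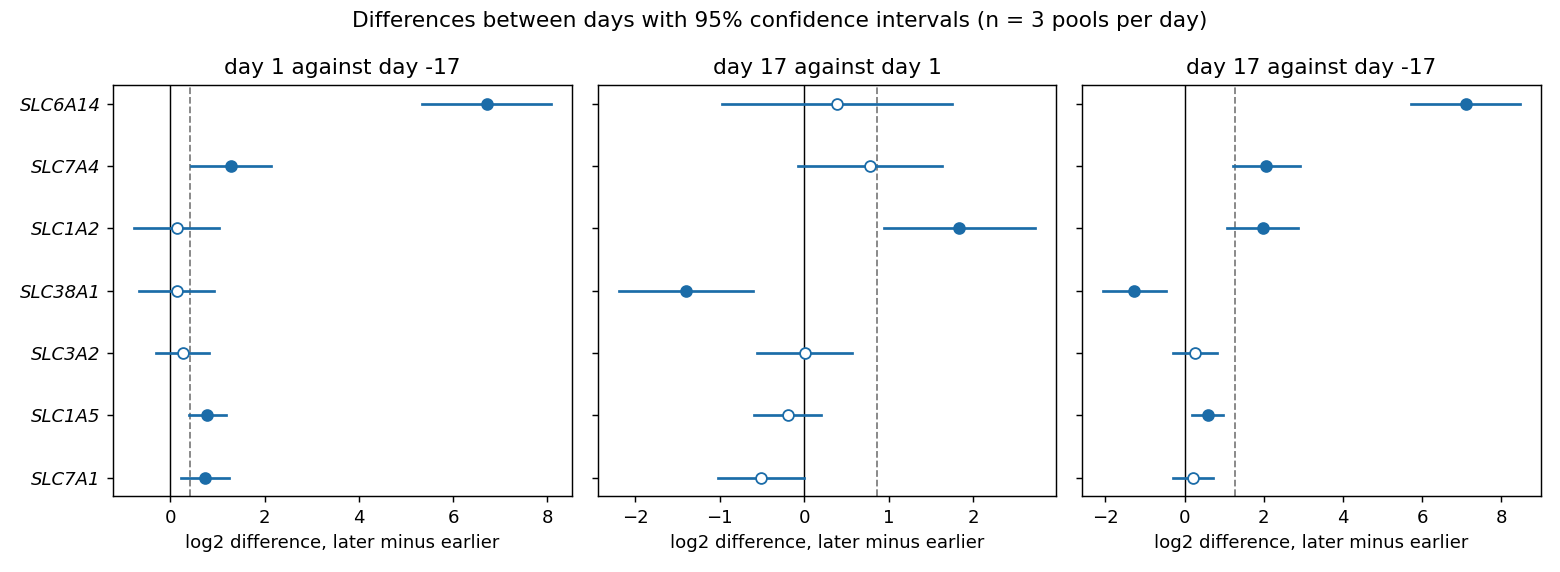
Log2 difference of each transporter (point) with its 95% confidence interval (line) in the 3 comparisons, later minus earlier day, 3 pools per day. Filled points passed the threshold, and the dashed line marks the shift of the hybridisation controls, 0.42, 0.86 and 1.28, below which a rise becomes a fall when the arrays are scaled to those controls. SLC6A14 lies beyond that line in both comparisons with day -17, and SLC38A1 lies below 0 in both comparisons with day 17.

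SLC6A14 takes up neutral and cationic amino acids together with sodium and chloride. Its signal was 21.0, 37.4 and 5.48 in the pools of day -17, 1933, 967 and 2643 on day 1, and 2998, 1547 and 2387 on day 17. Every pool of day -17 lay below the filter level, and every pool of the later days lay far above it, so neither later day overlapped with day -17, while days 1 and 17 overlapped. The mean was 21.3 ± 15.9 (SD, n = 3) on day -17, 1848 ± 841 (SD, n = 3) on day 1 and 2311 ± 729 (SD, n = 3) on day 17.

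The gene rose by 6.71 ± 0.62 on day 1 (adjusted p = 9.64e-05) and was 7.10 ± 0.62 above day -17 on day 17 (adjusted p = 2.50e-05). A fold against so dim a day depends on values below the filter level: measured against the filter level of the day -17 arrays, the signal was 19.1-fold higher on day 1 and 25.0-fold higher on day 17. Between days 1 and 17 the difference was 0.39 ± 0.62 (adjusted p = 0.711), with a confidence interval of -0.98 to 1.76, and the estimate turned to -0.47 when the arrays were scaled to the hybridisation controls and to -0.02 without day 1 pool 2. Both rises held under that scaling, at 6.29 (adjusted p = 0.000231) and 5.82 (adjusted p = 1.37e-05), and in each fit without 1 of the 9 pools.

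The dimmer probe set of SLC6A14 read 7.00, 3.54 and 34.5 on day -17, 96.1, 60.8 and 128 on day 1, and 185, 77.9 and 104 on day 17. Again no pool of day -17 reached the pools of the later days. It rose by 3.26 ± 0.79 on day 1 (adjusted p = 0.0154) and by 3.59 ± 0.79 on day 17 (adjusted p = 0.00444), which is 1.02-fold and 1.29-fold over the filter level of the day -17 arrays. Leaving out day 1 pool 3 ended the first of these calls (adjusted p = 0.0648). Both probe sets ordered the pools alike on day 1, with pool 2 lowest and pool 3 highest, and on day 17, with pool 2 lowest and pool 1 highest, but not on day -17.

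SLC38A1 brings glutamine, alanine and other small neutral amino acids into cells with sodium. Its signal was 645, 1654 and 1221 on day -17, 892, 1899.6 and 1023 on day 1, and 473, 539 and 367 on day 17. All 3 pools of day 17 lay below all 6 of the earlier days, whose pools overlapped with each other. The mean was 1174 ± 506 (SD, n = 3) on day -17, 1272 ± 548 (SD, n = 3) on day 1 and 459.7 ± 86.5 (SD, n = 3) on day 17, so the pools also lay closer together on day 17.

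SLC38A1 fell by 1.40 ± 0.36 between days 1 and 17 (adjusted p = 0.0297), and day 17 against day -17 gave -1.27 ± 0.36 (adjusted p = 0.0156), with no call between day 1 and day -17 (0.14 ± 0.36, adjusted p = 0.810). Both falls grew when the arrays were scaled to the hybridisation controls, to -2.26 and -2.54. With single pools left out, the fall from day 1 was not called in fits lacking day 1 pool 2 (-1.07, adjusted p = 0.0825) or its pool 3 (-1.52, 0.0558), or lacking day 17 pool 1 (-1.43, 0.0754), pool 2 (-1.53, 0.0586) or pool 3 (-1.25, 0.100), and also not without the intensity trend (adjusted p = 0.0516). The fall from day -17 was not called in fits lacking pool 2 (-0.97, adjusted p = 0.058) or pool 3 (-1.19, 0.0514) of day -17, or pool 3 of day 17 (-1.11, 0.0583).

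The second probe set of SLC38A1 read 333, 816 and 569 on day -17, 481, 1049 and 548 on day 1, and 284, 260.5 and 252 on day 17. The day 17 pools were again the lowest of the 9. It fell by 1.30 ± 0.34 from day 1 to day 17 (adjusted p = 0.0343) and by 1.02 ± 0.34 from day -17 to day 17 (adjusted p = 0.0337). The fall from day 1 was not called without day -17 pool 3, without day 1 pool 2 or 3, or without any single day 17 pool (adjusted p from 0.0526 to 0.0962), and the fall from day -17 not without day -17 pool 2 or 3 or any single day 17 pool (0.0656 to 0.121). The first was also not called without the intensity trend (0.0546), nor the second after quantile normalization (-0.88, adjusted p = 0.0565). The third probe set did not pass the filter and showed no such order, with 43.3, 93.6 and 47.0 on day -17, 61.7, 84.3 and 46.0 on day 1, and 63.4, 14.1 and 102 on day 17.

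SLC1A5 exchanges glutamine and other neutral amino acids across the membrane in a sodium-dependent way. Its signal was 1587, 986 and 1072 on day -17, 2144, 1826 and 2199 on day 1, and 1748, 1903 and 1716 on day 17. Both lactation days lay above all pools of day -17, where pool 1 was the brightest, and days 1 and 17 overlapped. The mean was 1215 ± 325 (SD, n = 3) on day -17, 2056 ± 201 (SD, n = 3) on day 1 and 1789 ± 99.9 (SD, n = 3) on day 17.

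The gene rose by 0.79 ± 0.18 on day 1 (adjusted p = 0.0111), a call that held without any single pool but not under scaling to the hybridisation controls (0.37, adjusted p = 0.141). Day 17 was 0.59 ± 0.18 above day -17 (adjusted p = 0.0205), and this direction turned under that scaling to -0.69 (adjusted p = 0.00678). Leaving out pool 2 (0.45, adjusted p = 0.0770) or pool 3 (0.51, 0.0734) of day -17, or pool 2 of day 17 (0.54, 0.0665), also ended the day 17 call. Between days 1 and 17 the difference of -0.20 ± 0.18 did not pass the threshold (adjusted p = 0.487), with a confidence interval of -0.59 to 0.20.

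SLC7A1 is the widely expressed carrier of the cationic amino acids lysine and arginine. Its signal was 651, 934 and 964 on day -17, 1191, 1853 and 1208 on day 1, and 790.1, 1167 and 993 on day 17. Day 1 stood above both other days in every pool, and day 17 overlapped with day -17. The mean was 849.8 ± 172 (SD, n = 3) on day -17, 1417 ± 377 (SD, n = 3) on day 1 and 984 ± 189 (SD, n = 3) on day 17.

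SLC7A1 rose by 0.73 ± 0.23 on day 1 (adjusted p = 0.0421), while the step from day 1 to day 17 (-0.51 ± 0.23) did not pass the threshold (adjusted p = 0.159) although the pools did not overlap, as held for 19.4% of all genes in the downward direction. The same-numbered pools differed by -0.59, -0.67 and -0.28 over that step. A fixed block for the pool number called it (adjusted p = 0.0462) and a random block did not (adjusted p = 0.103). The rise was no longer called in fits lacking pool 1 (0.55, adjusted p = 0.125), pool 2 (0.81, 0.0636) or pool 3 (0.83, 0.0614) of day -17, pool 2 (0.52, 0.134) or pool 3 (0.83, 0.0652) of day 1, or pool 3 of day 17 (0.73, 0.0608). It was also lost without the filter (0.0536), without the intensity trend (0.065), in a fit of the 6 arrays compared (0.0673) and under scaling to the hybridisation controls (0.31, adjusted p = 0.288). Day 17 against day -17 gave 0.21 ± 0.23 (adjusted p = 0.463), which turned to -1.06 (adjusted p = 0.00144) under that scaling.

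SLC7A4 resembles SLC7A1 in sequence, and its transport activity is less settled. Its signal was 30.2, 52.8 and 56.5 on day -17, 91.1, 182 and 78.9 on day 1, and 216, 167 and 183 on day 17. No pool of day -17 reached the filter level, 2 pools did on day 1 and all 3 on day 17, and day 1 overlapped with day 17 through its pool 2. The mean was 46.5 ± 14.3 (SD, n = 3), 117 ± 56.4 (SD, n = 3) and 189 ± 25.1 (SD, n = 3) on the 3 days.

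SLC7A4 was 2.07 ± 0.38 higher on day 17 than on day -17 (adjusted p = 0.00185), which is 2.10-fold over the filter level of the day -17 arrays, and this call held without any single pool but not when the arrays were scaled to the hybridisation controls (0.79, adjusted p = 0.0762). The rise of 1.29 ± 0.38 on day 1 (adjusted p = 0.0354, 1.23-fold over the filter level) was no longer called in fits lacking pool 1 (1.00, adjusted p = 0.100), pool 2 (1.41, 0.0565) or pool 3 (1.45, 0.0526) of day -17, pool 2 of day 1 (0.92, 0.121), or pool 2 (1.29, 0.0504) or pool 3 (1.29, 0.0519) of day 17. It was also lost without the filter (0.0512), in a fit of the 6 arrays compared (0.0761) and under scaling to the hybridisation controls (0.87, adjusted p = 0.0866). From day 1 to day 17 the difference was 0.78 ± 0.38 (adjusted p = 0.201), and -0.08 under that scaling.

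SLC1A2 is a sodium-driven carrier of glutamate and aspartate, best known from astrocytes. Its signal was 36.3, 60.3 and 50.7 on day -17, 46.4, 83.9 and 37.5 on day 1, and 139, 195 and 247 on day 17. The 6 pools of days -17 and 1 overlapped and lay below the filter level, and all pools of day 17 lay above it. The mean was 49.1 ± 12.1 (SD, n = 3), 55.9 ± 24.6 (SD, n = 3) and 194 ± 54.0 (SD, n = 3).

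SLC1A2 rose by 1.84 ± 0.41 from day 1 to day 17 (adjusted p = 0.0168), and day 17 stood 1.97 ± 0.41 above day -17 (adjusted p = 0.00315), which is 2.20-fold and 2.12-fold over the filter level of the earlier arrays. The probe set passed the filter only through its day 17 arrays. Without a high signal on that day it would not have been tested, so these calls are not independent of the filter. The call against day 1 ended when pool 3 of day 1 (1.60, adjusted p = 0.0508) or pool 2 (1.82, 0.0557) or pool 3 (1.65, 0.0671) of day 17 was left out. Scaling to the hybridisation controls kept the direction of both and the call of neither (0.98, adjusted p = 0.0519, and 0.69, adjusted p = 0.135). Day 1 against day -17 gave 0.13 ± 0.41 (adjusted p = 0.841).

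SLC3A2, the heavy chain of the exchangers, was the transporter with no call in any comparison. Its signal was 295, 393 and 397 on day -17, 307, 624 and 412 on day 1, and 471, 461 and 367 on day 17. The 3 days overlapped, and the highest pool was day 1 pool 2. The mean was 362 ± 57.9 (SD, n = 3), 447 ± 162 (SD, n = 3) and 433 ± 57.2 (SD, n = 3).

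The differences of SLC3A2 were 0.26 ± 0.25 on day 1 (adjusted p = 0.481, interval -0.30 to 0.82), 0.0048 ± 0.25 from day 1 to day 17 (adjusted p = 0.993, interval -0.56 to 0.57) and 0.26 ± 0.25 on day 17 against day -17 (adjusted p = 0.413, interval -0.30 to 0.82). Under scaling to the hybridisation controls the differences became -0.16 (adjusted p = 0.615), -0.85 (adjusted p = 0.0112) and -1.01 (adjusted p = 0.00302).

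**Figure D2:**
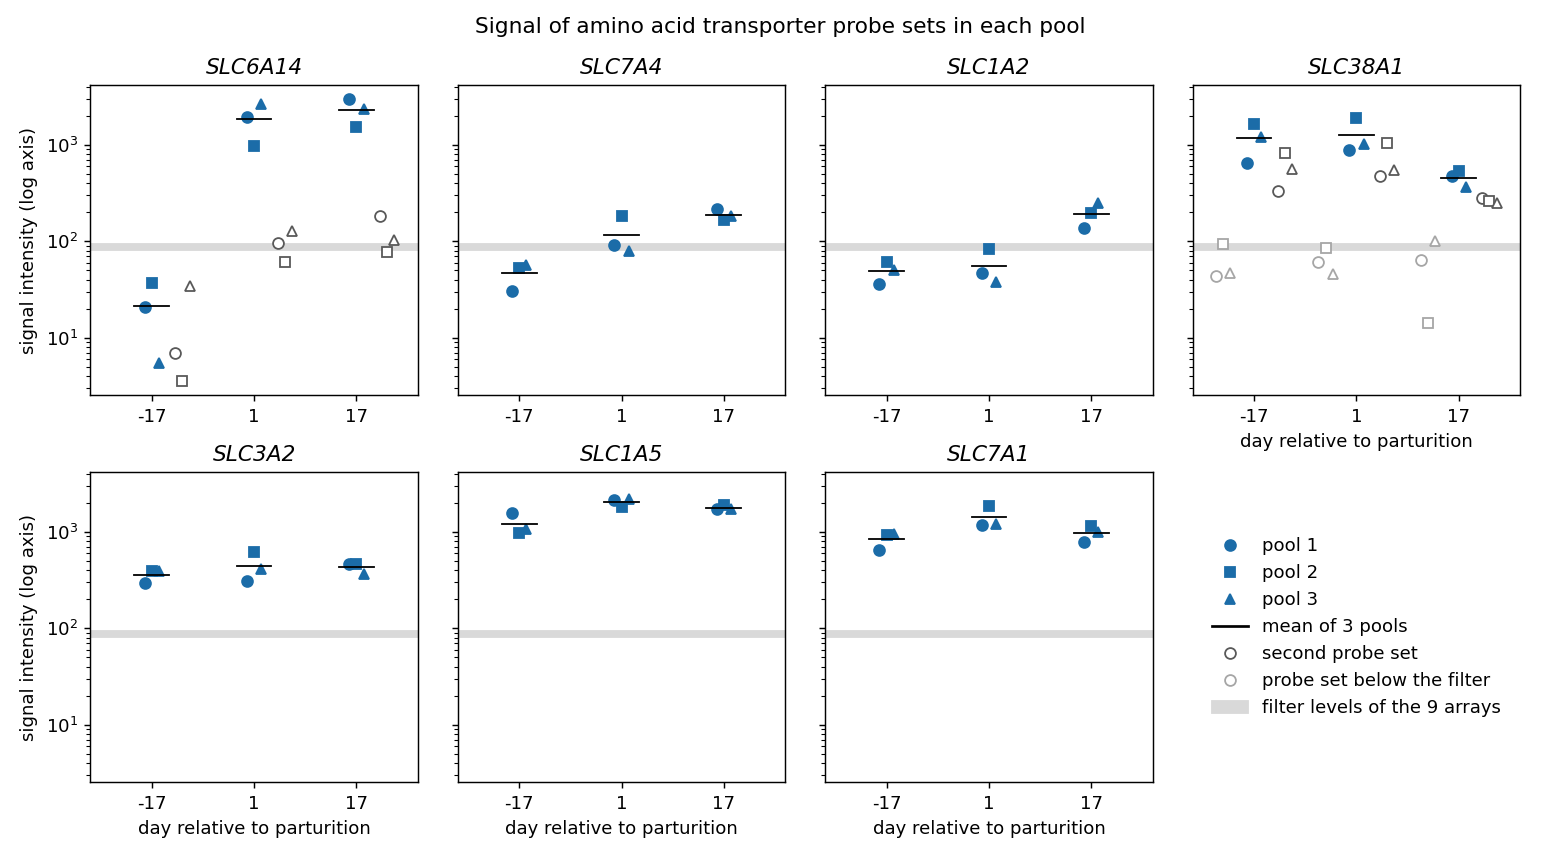
Signal intensity (log axis) of every probe set of the 7 transporters in each pool by day relative to parturition, with the mean of 3 pools as a bar for the representing probe set, other probe sets as open symbols, and the filter levels of the 9 arrays as a grey band. SLC6A14 goes from below the band on day -17 (mean 21.3) to a mean of 1848 on day 1, SLC1A2 crosses the band only by day 17, and SLC38A1 drops from a mean of 1272 to 459.7 between days 1 and 17.

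By overlap of their pools, the 7 genes fell into several courses over the days on the deposited scale. SLC6A14 and SLC1A5 stood higher on both lactation days than on day -17, with days 1 and 17 not separated beyond their spread. SLC7A4 had the order day -17, day 1, day 17 from low to high, in which only day -17 was separated from the others. SLC1A2 was separated on day 17 alone, upward, and SLC38A1 on day 17 alone, downward. SLC7A1 was highest on day 1, and SLC3A2 had no separated day. SLC1A5, SLC7A1 and SLC3A2 turned below day -17 on day 17 when the arrays were scaled to the hybridisation controls.

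**Figure D3:**
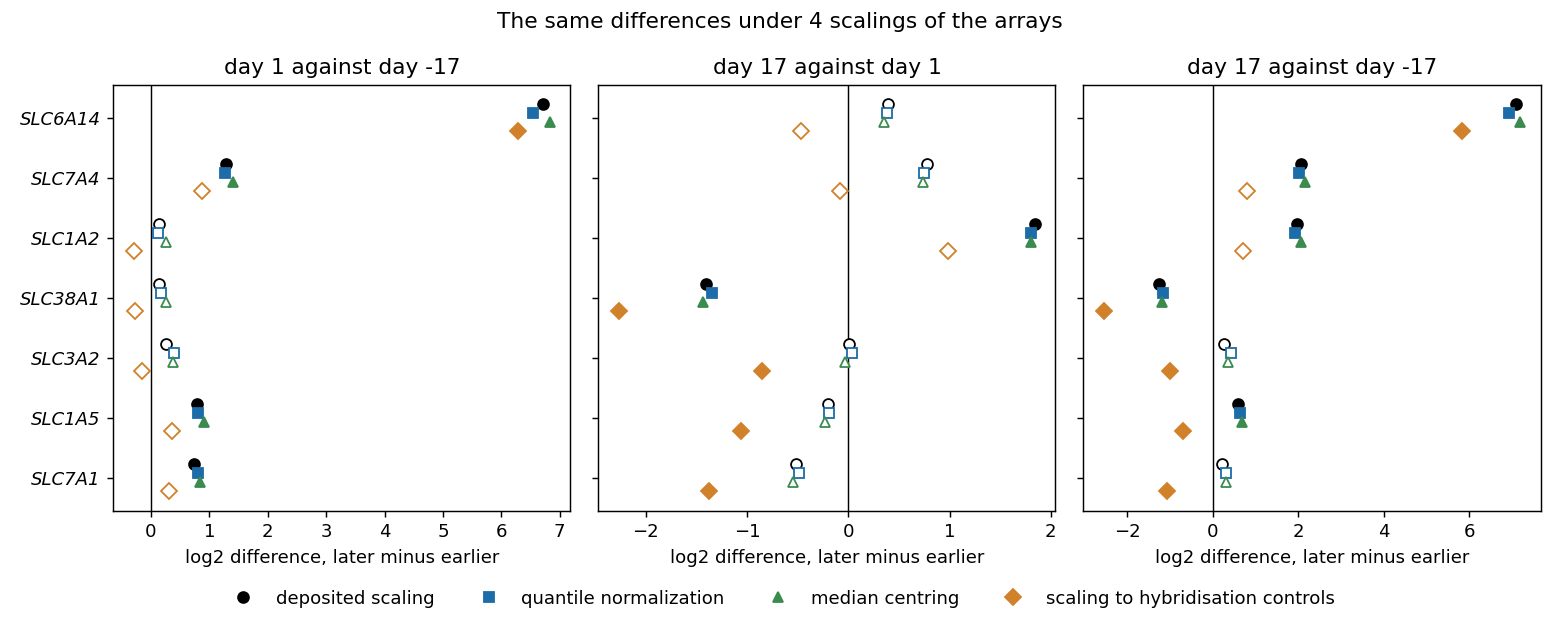
Log2 difference, later minus earlier day, of each transporter under the deposited scaling, quantile normalization, median centring and scaling to the hybridisation controls, filled where the adjusted p was under 0.05. The first 3 scalings lie close together, and scaling to the controls moves each difference down by about the shift of the controls, 0.42, 0.86 and 1.28 log2, so that SLC1A5 on day 17 against day -17 goes from 0.59 to -0.69.

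Several transporters ordered the pools of a day alike, but how many of all genes share that order was not counted. Over all tested probe sets, deviations of day -17 pool 1 and day 1 pool 2 from their day means correlated at -0.326. The order below is therefore not shown to be particular to the transporters. On day 1, pool 2 was the highest of the 3 for SLC7A4, SLC1A2, SLC38A1, SLC3A2 and SLC7A1 and the lowest for SLC6A14 and SLC1A5. On day -17, pool 1 was the lowest for the same 5 genes and the highest for SLC1A5. The ratio of the highest to the lowest pool on day 1 was 2.73 for SLC6A14, 2.31 for SLC7A4, 2.24 for SLC1A2, 2.13 for SLC38A1, 2.03 for SLC3A2, 1.56 for SLC7A1 and 1.20 for SLC1A5. On day 17 that ratio lay between 1.11 (SLC1A5) and 1.94 (SLC6A14).

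**Figure D4:**
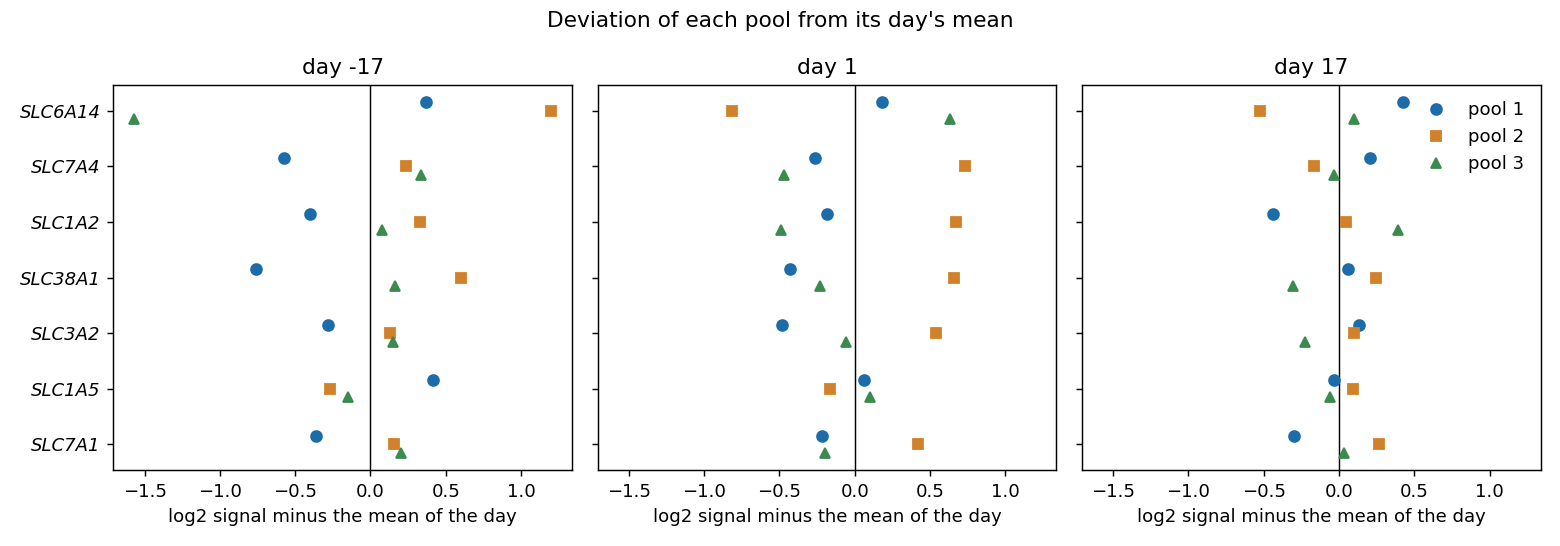
Deviation of each pool from the mean log2 signal of its day for the 7 transporters, by day. On day 1 pool 2 lies to the right for 5 genes and to the left for SLC6A14 and SLC1A5, and on day -17 pool 1 lies to the left for those 5 genes.

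For each transporter called in the F test, the 2 genes with the most similar log2 signal over the 9 arrays were looked up among 5517 genes. The correlations are descriptions over 9 arrays that share the same 3 days, so any gene with a like course over the days scores high. SLC6A14 was most like SPCS3, a subunit of the signal peptidase that trims secreted proteins (Pearson r = 0.987), which differed by 1.62 on day 1 against day -17, and ACSL6, which activates fatty acids (r = 0.983), which differed by 7.43. SLC7A4 was most like FXR2 (r = 0.975) and DECR2 (r = 0.973), and SLC1A2 most like DYNLL2 (r = 0.976) and TAX1BP1 (r = 0.965).

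The nearest genes of SLC1A5 were C2H11orf24 (r = 0.966) and SAR1A, a GTPase of vesicle transport from the endoplasmic reticulum (r = 0.963). Those of SLC38A1 were DAZAP1 (r = 0.947), an RNA-binding protein, and LSM2 (r = 0.945), part of the splicing machinery. DAZAP1 and LSM2 differed by -0.66 and -0.39 between days 1 and 17, where SLC38A1 differed by -1.40.

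Among 42 other amino acid and peptide transporters, 12 had a probe set and 10 were tested. On day 1 against day -17, 2 of the 10 rose and none fell (median 0.54), on day 17 against day 1, 1 rose and none fell (median 0.10), and on day 17 against day -17, 5 rose and 1 fell (median 0.36), beside the shares of all genes given above. Scaling to the hybridisation controls gave 1 higher and 2 lower, none higher and 6 lower, and none higher and 7 lower.

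SLC1A4, a relative of SLC1A5 that carries alanine, serine and cysteine, read 88.8, 74.9 and 63.7 on day -17, 161, 154 and 155 on day 1, and 161, 160.2 and 153 on day 17. Both later days stood above every pool of day -17, of which only pool 1 reached the filter level. The rise was 1.06 ± 0.23 on day 1 (adjusted p = 0.00858) and 1.07 ± 0.23 on day 17 (adjusted p = 0.00356), and held in each fit without 1 pool, but under scaling to the hybridisation controls it became 0.64 (adjusted p = 0.0508) and turned to -0.20 (adjusted p = 0.435).

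SLC38A10, a carrier of the same family as SLC38A1, read 659, 624 and 831 on day -17, 1071, 1161 and 1481 on day 1, and 1174, 1136 and 1124 on day 17. It was higher on day 1 (0.81 ± 0.16, adjusted p = 0.0064) and, on the deposited scale, on day 17 (0.71 ± 0.16, adjusted p = 0.0053), the latter turning to -0.57 (adjusted p = 0.00365) under scaling to the controls. SLC38A9, the arginine sensor of the lysosome, rose by 0.45 ± 0.16 on day 17 against day -17 (adjusted p = 0.0411) and turned to -0.82 under that scaling. The SLC38A9 call was lost without day -17 pool 1 or 3 or any single day 17 pool (adjusted p from 0.0702 to 0.142), and without the filter or the intensity trend (0.0520 in both).

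SLC15A2, which takes up short peptides with protons, read 80.9, 121 and 130 on day -17, 101, 118 and 70.0 on day 1, and 250.1, 201 and 335 on day 17. Only day 17 stood apart from the other days. It rose by 1.45 ± 0.30 from day 1 to day 17 (adjusted p = 0.0143) and was 1.24 ± 0.30 above day -17 (adjusted p = 0.00763), turning to -0.03 in the latter comparison under scaling to the controls. The rise from day 1 lost its call when day 17 pool 3 was left out (1.25, adjusted p = 0.0569) and under scaling to the controls (0.59, adjusted p = 0.103), and its dimmer probe sets gave 2.58 and 1.99 for the same step. In neither dimmer probe set did a pool of day 1 reach the filter level.

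SLC1A3, a glutamate and aspartate carrier like SLC1A2, read 83.0, 77.9 and 79.2 on day -17, 147, 102 and 360 on day 1, and 295, 140 and 228 on day 17. It was 1.40 ± 0.43 higher on day 17 than on day -17 (adjusted p = 0.0232), and the call was lost without day -17 pool 2 or 3 or day 17 pool 1 or 3 (adjusted p from 0.0549 to 0.087). Every pool of day -17 lay below the filter level. SLC1A3 thus passed the filter only through days 1 and 17, and this call is not independent of the filter. Under scaling to the hybridisation controls the SLC1A3 difference was 0.12 (adjusted p = 0.790). For SLC1A1, a further glutamate carrier, the probe sets disagreed: the brightest gave -0.79 ± 0.47 from day 1 to day 17 (adjusted p = 0.283) and a dimmer one 1.29 ± 0.39 (adjusted p = 0.0511). On day 17 against day -17 the dimmer one was called (1.08 ± 0.39, adjusted p = 0.0413) and the brightest was not (0.19 ± 0.47, adjusted p = 0.756). That dimmer probe set was also below the filter level in every pool of day -17, and passed only through the later days.

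SLC36A2 carries small amino acids with protons and is known from adipocytes. It read 491, 54.9 and 306 on day -17, 100.4, 19.5 and 4.27 on day 1, and 7.34, 28.8 and 27.3 on day 17. Only pools 1 and 3 of day -17 and pool 1 of day 1 reached the filter level, so SLC36A2 was tested only through the earlier days. It fell by 3.49 ± 1.18 between day -17 and day 17 (adjusted p = 0.0330), a call that ended when pool 1 (-2.85, adjusted p = 0.123) or pool 3 (-3.19, 0.107) of day -17, or pool 1 (-2.85, 0.106), pool 2 (-3.84, 0.0503) or pool 3 (-3.80, 0.0527) of day 17, was left out. Of 6 adipocyte markers measured, 4 fell and 1 rose between these days, where 23.8% of all genes were called lower and 23.8% higher. The marker that rose was FABP4, with a mean of 10579 on day -17 and 15885 on day 17. ADIPOQ, GPD1, LIPE and RBP4 were below the filter level in all day 17 pools, so they passed the filter only through the earlier days. The summed signal of the list was 7410 to 18723, 14299 to 19537 and 15224 to 17068 on the 3 days, most of it from FABP4, and none of the markers was at 0. The part of these markers in the SLC36A2 result was not tested.

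**Figure D5:**
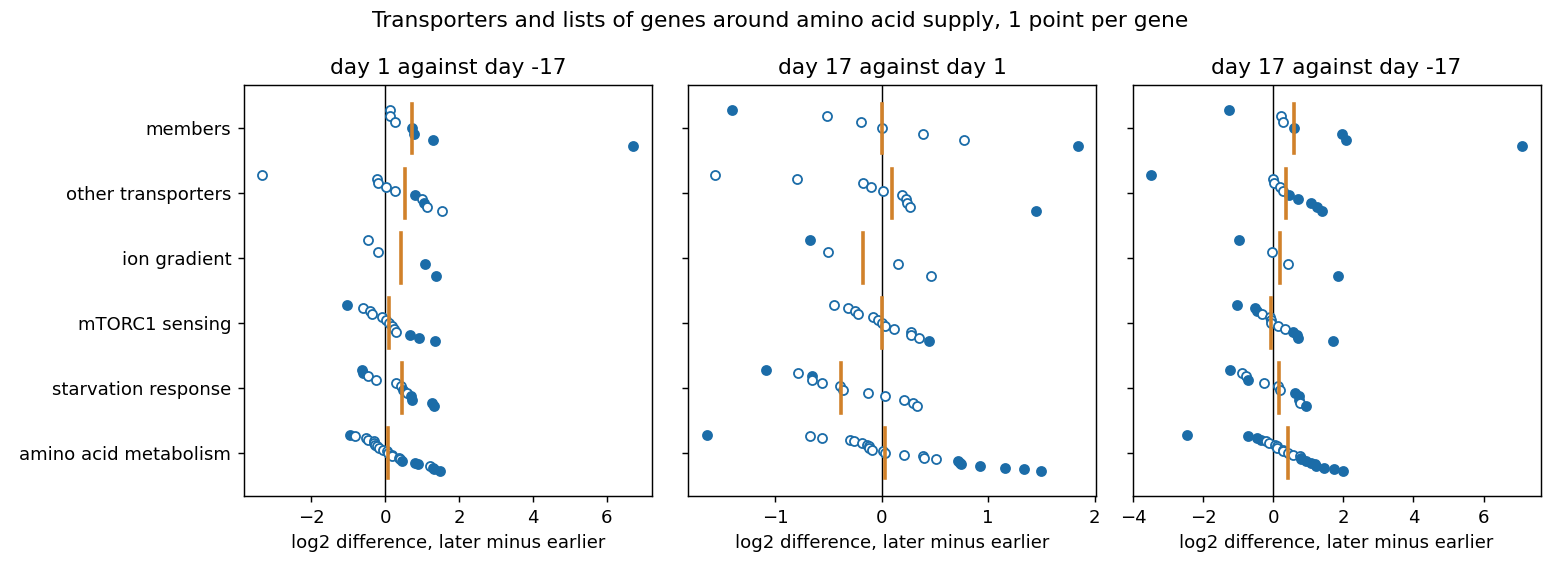
Log2 difference, later minus earlier day, of each tested gene in the 7 transporters, the 10 other transporters and 4 lists of genes around amino acid supply, with a filled point where the adjusted p was under 0.05 and an orange bar at the median of the list. On the deposited scale the transporters have medians of 0.73 and 0.54 on day 1 against day -17, and all medians move down by 0.42, 0.86 or 1.28 when the arrays are scaled to the hybridisation controls.

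Uptake by sodium-coupled carriers runs on the ion gradients that the sodium pump keeps up. Of 9 genes listed for these gradients 4 were tested, of which 2 rose on day 1, 1 fell from day 1 to day 17, and 1 rose and 1 fell on day 17 against day -17 (medians 0.44, -0.18 and 0.18). The shares of all genes called in those directions were 15.3% higher on day 1, 8.57% lower from day 1 to day 17, and 23.8% higher and 23.8% lower on day 17 against day -17. SLC9A3R1, a scaffold for membrane exchangers, rose by 1.37 ± 0.17 on day 1 (adjusted p = 0.000538) and stood 1.83 ± 0.17 above day -17 on day 17 (adjusted p = 3.14e-05).

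ATP1B3, a beta subunit of the sodium pump, rose by 1.08 ± 0.19 on day 1 (adjusted p = 0.00318) and fell by 0.68 ± 0.19 by day 17 (adjusted p = 0.0389), while ATP1B1, the other measured beta subunit with a call, fell by 0.97 ± 0.20 between day -17 and day 17 (adjusted p = 0.00293). The fall of ATP1B3 was lost without day -17 pool 2, day 1 pool 3 or any single day 17 pool (adjusted p from 0.0526 to 0.117), without the intensity trend (0.0688) or with the 6 arrays alone (0.0525), and that of ATP1B1 when its probe sets were averaged (-0.37, adjusted p = 0.0904). Scaling to the hybridisation controls gave 2 higher and 1 lower, 0 and 3, and 1 and 3.

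Amino acids that enter the cell are sensed by the kinase complex mTORC1 at the lysosome. Of 27 genes listed 13 were tested, with 3 higher and 1 lower on day 1, 1 higher on day 17 against day 1, and 4 higher and 3 lower on day 17 against day -17 (medians 0.11, 4.3e-05 and -0.07). The 4 and 3 of 13 in the last comparison stand beside 23.8% called higher and 23.8% lower of all genes, and the 3 and 1 on day 1 beside 15.3% and 10.4%. On day 17 against day 1 the shares were 8.02% and 8.57%. RHEB, the GTPase that activates the complex, rose by 1.36 ± 0.11 on day 1 (adjusted p = 5.48e-05) and stood 1.71 ± 0.11 above day -17 on day 17 (adjusted p = 4.54e-06). LAMTOR2, part of the lysosomal anchor, rose by 0.91 ± 0.15 and 0.69 ± 0.15, the latter turning to -0.59 under scaling to the hybridisation controls.

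CASTOR1, the cytosolic arginine sensor, fell by 1.02 ± 0.20 on day 1 (adjusted p = 0.00624) and day 17 against day -17 gave -1.05 ± 0.20 (adjusted p = 0.00226). RRAGC, a GTPase that recruits mTORC1, was 0.45 ± 0.13 higher on day 17 than on day 1 (adjusted p = 0.0441), a call lost without day -17 pool 3, day 1 pool 2 or 3 or any single day 17 pool (adjusted p from 0.0667 to 0.127), with median centring (0.0794), without the filter (0.0570) or the intensity trend (0.0791) or with the 6 arrays alone (0.0521), and turning to -0.41 under scaling to the controls. That scaling gave 2 higher and 5 lower, 0 and 12, and 1 and 12 for the list.

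When amino acids run short, the transcription factor ATF4 raises genes of amino acid synthesis and of several transporters. Of 21 genes listed for this response 12 were tested, with 5 higher and 2 lower on day 1, 2 lower on day 17 against day 1, and 4 higher and 2 lower on day 17 against day -17 (medians 0.45, -0.38 and 0.16). Of all genes, 15.3% were called higher and 10.4% lower in the first comparison, 8.02% and 8.57% in the second and 23.8% and 23.8% in the third. ASNS, asparagine synthetase, rose by 1.33 ± 0.29 on day 1 (adjusted p = 0.00982), and MTHFD2, an enzyme of mitochondrial folate metabolism, by 1.28 ± 0.18 (adjusted p = 0.00124), while the transcription factor CEBPB fell by 0.62 ± 0.14 (adjusted p = 0.0126).

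From day 1 to day 17, MTHFD2 fell by 0.65 ± 0.18 (adjusted p = 0.0400) and PSPH, the last enzyme of serine synthesis, by 1.08 ± 0.30 (adjusted p = 0.0384). Both calls were lost without day 1 pool 2 or 3 or any single day 17 pool (MTHFD2, adjusted p from 0.0653 to 0.116; PSPH, from 0.0547 to 0.115), and that of PSPH also without day -17 pool 3 (0.0558). Neither was called after quantile normalization (MTHFD2 0.0568, PSPH 0.05002), without the intensity trend (0.0588 and 0.0607) or with the 6 arrays alone (0.0527 and 0.0604), nor MTHFD2 without the filter (0.0518). Against day -17, ATF4 itself was 0.93 ± 0.11 higher on day 17 (adjusted p = 0.000154) and its partner CEBPG 0.74 ± 0.21 higher (adjusted p = 0.0161), but these turned to -0.34 and -0.54 under scaling to the hybridisation controls.

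CEBPG was not called in fits lacking day -17 pool 2 (adjusted p = 0.0570) or day 17 pool 1 (0.0602). PSAT1, which makes phosphoserine, fell by 1.25 ± 0.34 between day -17 and day 17 (adjusted p = 0.0126; 0.0509 without day -17 pool 3). Scaling to the controls gave 3 higher and 3 lower, 0 and 12, and 0 and 11 for the list.

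Amino acid metabolism was the longest list, with 23 of 34 genes tested: 6 were higher and 1 lower on day 1, 7 and 1 on day 17 against day 1, and 9 and 4 on day 17 against day -17 (medians 0.07, 0.03 and 0.42). Read beside those counts, the shares of all genes were 15.3% higher and 10.4% lower, 8.02% and 8.57%, and 23.8% and 23.8%. ARG2, the mitochondrial arginase that splits arginine, rose by 1.49 ± 0.37 on day 1 (adjusted p = 0.0174; lost without day 1 pool 2, 0.0587, or pool 3, 0.0717) and stood 2.00 ± 0.37 above day -17 on day 17 (adjusted p = 0.00184). ASNS also belongs to this list. DBT, a subunit of the complex that breaks down branched-chain amino acids, fell by 0.95 ± 0.19 on day 1 (adjusted p = 0.00617).

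From day 1 to day 17, OAT, which turns ornithine toward proline and glutamate, rose by 1.50 ± 0.28 (adjusted p = 0.0083), and CTH, which makes cysteine, by 1.34 ± 0.24 (adjusted p = 0.0076). Neither was called under scaling to the controls (OAT 0.64, adjusted p = 0.0567; CTH 0.48, adjusted p = 0.0771), nor was ARG2 on day 17 against day -17 (0.72, adjusted p = 0.0808). ODC1, which turns ornithine into polyamines, fell by 1.64 ± 0.29 from day 1 to day 17 (adjusted p = 0.00748) and gave -2.47 ± 0.29 on day 17 against day -17 (adjusted p = 0.000137). ASS1, an enzyme of arginine synthesis, was 1.74 ± 0.17 higher on day 17 than on day -17 (adjusted p = 4.17e-05). Scaling to the controls gave 3 higher and 8 lower, 0 and 14, and 1 and 13 for the list.

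The tissue label was checked against markers of secretory luminal epithelium, of which 10 of 11 had a probe set and none was below the filter level in all pools of a day. Their summed signal was 67044 to 84659 on day -17, 216903 to 305691 on day 1 and 450185 to 457651 on day 17, and the milk protein genes made up most of it. On the deposited scale, 7 of the 10 rose and none fell on day 1 against day -17, 5 rose and none fell on day 17 against day 1, and 7 rose and 2 fell on day 17 against day -17. The shares of all genes called higher and lower were 15.3% and 10.4%, 8.02% and 8.57%, and 23.8% and 23.8%. The luminal keratins went the other way, with mean signals of KRT8 of 4949, 2301 and 1603 and of KRT18 of 1858, 690.2 and 711 on the 3 days. The largest difference of the 10 markers from day 1 to day 17 was 0.84, below the shift of the hybridisation controls of 0.86. Scaled to those controls, none of the markers would therefore be higher on day 17 than on day 1. The part of these cells, and of their share of the tissue, in the transporter differences was not tested.

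Of markers of other cells, T cell sums were 514 to 806, 293 to 441 and 438 to 666, with 1 of 3 tested genes lower on day 1 and none called otherwise. Fibroblast sums were 27672 to 35344, 14016 to 32211 and 12742 to 14437, with 3 of 4 genes lower on day 17 than on day -17. Sums of B and plasma cell markers were 6134 to 9334, 5730 to 10538 and 27832 to 28308, and both tested genes were higher on day 17 than on day -17. One of them, CD79B, passed the filter only through its day 17 arrays. Erythrocyte sums were 1551 to 2883, 820.4 to 1170 and 589 to 717, with 1 of 2 tested genes lower on day 1 and both lower on day 17 than on day -17. Myoepithelial sums were 17532 to 22937, 22049 to 27662 and 24414 to 32917, with none of 4 tested genes called on day 1, 1 higher on day 17 than on day 1 and 3 higher than on day -17. Among these 4, MYLK passed the filter only through its day 17 arrays. It read 2.54 to 7.75 on day -17, 6.84 to 15.7 on day 1 and 94.4 to 135 on day 17. Endothelial sums were 5638 to 9573, 5858 to 9079 and 5649 to 6856, with 1 of 5 tested genes lower than on day -17 on either later day. Macrophage sums were 3264 to 4348, 3784 to 7137 and 2728 to 3503, with 1 of 4 tested genes higher than on day -17 on either later day and none called lower. Beside the counts in this paragraph, 15.3% of all genes were called higher and 10.4% lower on day 1 against day -17. The shares were 8.02% and 8.57% on day 17 against day 1, and 23.8% and 23.8% on day 17 against day -17. All of these counts are on the deposited scale and were not repeated with the arrays scaled to the hybridisation controls. The part of these cells in the transporter differences was not tested either.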

How the data were processed

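The members and gene lists were chosen with earlier results of these data known. The deposited values are intensities on a linear scale, for which the submitters' processing notes name MAS5 (version not stated); the genome build is not given in the sources used here. Of 24123 probe sets, 124 controls were left out, and no pseudocount was used for log2. Symbols came from the platform annotation, with 10099 probe sets having 1 symbol, 198 several and 13826 none. All 9 arrays were fitted with limma 3.58.1 in R 4.3.3 (lmFit, eBayes with an intensity trend, day only, 10.3 degrees of freedom), two-sided, with Benjamini-Hochberg adjustment within each comparison. An exact test of 3 against 3 pools cannot go below p = 0.1 and was not used. No spread beyond that between pools enters the p-values.

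Named were all members, every called gene among the other transporters, and from each other list the 2 largest called changes in its more common direction and the largest opposite one. Adjusted p-values in the text are from that fit. The fit was tested on simulated data with independent normal noise, in which 100 of 15519 probe sets were changed 2-fold and 100 were changed 4-fold. It called 36, 43 and 47 of the former and 87, 82 and 83 of the latter. Of all its calls, 2.38%, 10.1% and 5.11% were false. Many more probe sets were called in the real comparisons, so these rates need not hold there.

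Pool numbers were checked as pairs by correlating deviations from the day means. Same-numbered pools gave 0.235 to 0.506 (day 1 and day -17), 0.105 to 0.130 (day 17 and day -17) and 0.0960 to 0.107 (day 17 and day 1). Differently numbered pools gave -0.387 to 0.113, -0.0739 to -0.0421 and -0.0768 to -0.0268 in the same order. Deviations of the 3 pools of a day sum to 0, so the values for differently numbered pools are not independent of the others. The numbers were taken to pair the samples, from the data and not from the labels, although 2 of the 3 values for days 17 and 1 were under 0.1. The main fit had no block for the pool number, so its p-values are unpaired and ignore any such pairing. The block was run only as an alternative. Alternatives were other scalings, leaving out the filter, the intensity trend or each pool, a filter at the 60th percentile, a pseudocount of 16, the 6 arrays compared alone, the pool number as a block, a minimum fold of 2, and averaging a gene's probe sets.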

Additional observations from a re-analysis of the deposited data

How the results depend on the processing

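Of the alternative values for the transporters, 445 kept their direction and side of the threshold, 52 lost the call, 3 gained one and 25 changed sign; for the other named genes these were 662, 64, 0 and 8. The number of called transporters on day 1 against day -17 (4) became 1 under scaling to the hybridisation controls, 2 without the filter and 2 with the 6 arrays alone; on day 17 against day 1 (2) it became 4, 1 with the stricter filter and 1 without the intensity trend; on day 17 against day -17 (5) it became 3 with the stricter filter, which leaves SLC7A4 and SLC1A2 untested. Without single pools it ranged from 2 to 4, 0 to 2 and 3 to 5, and from 4 to 6 in the F test. Called probe sets (3736, 2116 and 7223) became 6974, 10953 and 13057 under scaling to the controls, of which 833, 115 and 486 were higher, and 1592, 820 and 3809 with a minimum fold of 2; without single pools they ranged from 2110 to 4424, 1049 to 2109 and 5887 to 7639. Median centring gave 2282 higher and 1251 lower on day 1 against day -17, where the deposited scaling gave 1860 and 1876.

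The pool number as a block changed no transporter call in the comparisons with day -17, with 4496 and 7825 probe sets called as a fixed block. From day 1 to day 17, SLC7A1 (-0.51) was called with the fixed block (adjusted p = 0.0462) and not with the random one (0.103), and the block changed no other call of a named gene.

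Signs changed under scaling to the hybridisation controls for SLC1A5 (-0.69) and SLC7A1 (-1.06) on day 17 against day -17, for SLC3A2 (-0.16, -0.85 and -1.01), for SLC6A14 (-0.47; dimmer probe set -0.52) and SLC7A4 (-0.081) on day 17 against day 1, for SLC38A1 (-0.28; second probe set -0.14) and SLC1A2 (-0.29) on day 1 against day -17, and for SLC1A4 (-0.20), SLC15A2 (-0.033), SLC38A9 (-0.82), SLC38A10 (-0.57), LAMTOR2 (-0.59), ATF4 (-0.34), CEBPG (-0.54) and RRAGC (-0.41). By construction that scaling subtracts 0.42, 0.86 and 1.28 from the differences. The other sign changes were all of differences that were not called. Leaving out single pools, SLC3A2 ranged from -0.012 to 0.50 on day 1 against day -17 and from -0.24 to 0.28 on day 17 against day 1 (median centring gave -0.031). On day 17 against day 1, SLC6A14 ranged from -0.020 to 0.71 and its dimmer probe set from -0.0093 to 0.62. On day 1 against day -17, SLC38A1 ranged from -0.24 to 0.44, its second probe set from -0.065 to 0.58 and SLC1A2 from -0.21 to 0.38. No detection calls were used, so signals under the filter level, as on day -17 for SLC6A14, SLC7A4 and SLC1A2, set no lower limit to a fold.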
